A study of Arabidopsis thaliana with 12 samples.

Results

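The 497 peaks of N6-methyladenosine (m6A) described here are those that the authors' deposited table annotates as 5' UTR, out of 6437 peaks in all. The table sets the m6A of a mettl16 mutant of Arabidopsis thaliana against that of the reference accession Col-0. A row counted when its annotation read 5' UTR, and none of these rows repeated an interval exactly, against 9 repeats in the whole table. The peaks lay on 475 genes. Both genotypes were the aerial part of 3-week-old plants grown in a greenhouse at 23 °C under long days (16 h of light, 8 h of darkness), in a study of the floral transition. Col-0 was the reference and carried no mutation or treatment, and the mutant was named only mettl16, with no allele or locus in the labels. RNA-seq (input) and m6A immunoprecipitates of each genotype were made in 3 biological replicates, which gave 12 samples in 4 groups. The peak table holds 1 comparison and no values per library, so the m6A values have no replicate error here. For the 6 RNA-seq libraries, the expression table gives FPKM, a fragment count scaled for the length of the transcript and the size of the library.

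In m6A, a methyl group is carried on the nitrogen at the 6 position of adenine in RNA. Most m6A of messenger RNA is made by a writer complex around the methyltransferases MTA and MTB in plants, and it lies mainly near the stop codon and in the 3' UTR. METTL16 is a methyltransferase that acts apart from that complex; in animals it is known for methylating U6 small nuclear RNA and a SAM synthetase transcript, and the Arabidopsis homologue is FIO1. The 5' UTR is the stretch between the start of a transcript and its start codon, where ribosomes scan and upstream reading frames act. In mammals m6A in 5' UTRs is known for a part in translation that does not need the usual cap-binding factor.

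FPKM sums ran from 699031 to 718824, and 1939 to 3120 of 25566 genes were listed at 0 per library. FIO1 stood at 1.98, 2.13 and 2.31 FPKM in Col-0 against 0.292, 0.148 and 0.197 FPKM in mettl16. That is a change of -1.37 ± 0.0853 on the log2(FPKM + 1) scale (limma, adjusted p = 4.94e-07). Depth in reads is not stored in either file.

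Transcripts of floral marker genes differed between the genotypes, and a difference in tissue make-up may bear on any expression value here. The summed FPKM of 10 floral organ and anther markers was 0.740 to 1.02 in Col-0 and 55.6 to 60.3 in mettl16. All 7 of these markers that could be tested were higher, and 5 (A9, A6, ATA7, MS1 and DYT1) were listed at 0 in every Col-0 library. Of 6 leaf photosynthetic markers 4 were lower and 1 higher, with sums of 44229 to 45644 FPKM in Col-0 and 35721 to 38197 FPKM in mettl16. Of 8 root markers 5 were in the table, with sums of 12.1 to 13.8 FPKM in Col-0 and 16.5 to 17.7 FPKM in mettl16; 1 could be tested and was higher. The part of tissue make-up in the results was not tested, and in bulk tissue fewer cells of a type and less RNA per cell cannot be told apart.

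Most of these peaks began at or near the start of the assigned transcript, but many reached far beyond it. Distances were measured from the ends of that transcript and not from its start codon. Of the 497 peaks, 308 began exactly at the first base of the transcript that the authors' deposited table assigns and 49 began upstream of it, which is 71.8% at or before the start. Another 72 began within 100 bases downstream, 68 began more than 100 bases downstream and 22 of these more than 500 bases downstream. By their 3' edge, 289 peaks ended before the midpoint of the transcript span, 54 ended past the midpoint, and 154 reached or passed the 3' end. These 3 kinds were set up after the positions had been seen. Peaks whose outer edges enclosed the assigned transcript from start to end numbered 102, of 141 such peaks in the whole table. Blocks were not considered in this count. It thus includes a peak such as that of SPL5, with 1.75% of its block bases inside the transcript. A 5' UTR label therefore covers compact peaks at a transcript's start as well as peaks over whole short transcripts.

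**Figure D1:**
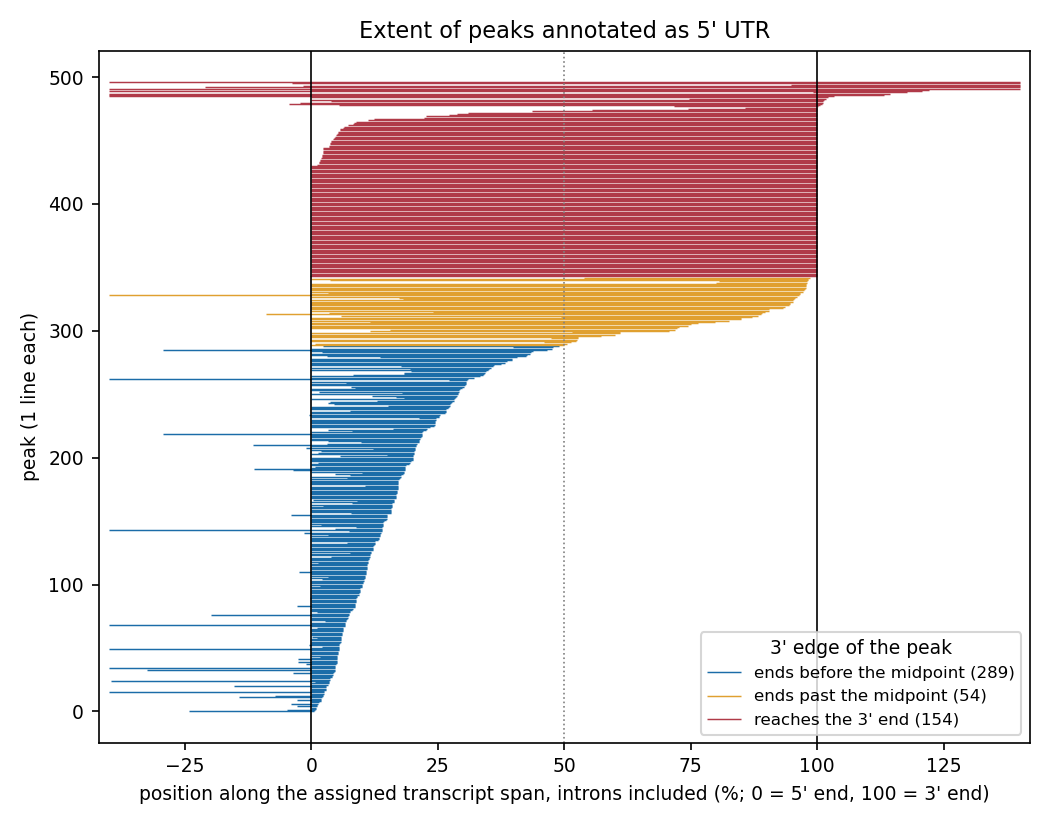
Each line is 1 of the 497 peaks, drawn from its 5' to its 3' edge as a percentage of the assigned transcript's span (introns included), with the 5' end at 0 and the 3' end at 100 and parts beyond -40 or 140 not drawn. The 289 peaks that end before the midpoint hug the start, while the 154 that reach the 3' end mostly cover the transcript from end to end.

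The kinds differed in size and in the genes that carried them. In the authors' deposited table the median width was 239 bases for peaks that ended before the midpoint and 1198.5 bases, introns included, for those that reached the 3' end. Of the former, 251 of 289 were 1 unbroken block, against 8 of 154 of the latter. The transcripts under them spanned a median of 2059 and 1250 bases. Over all 497 peaks the median width was 419 bases (59 to 6093), the median length without introns 387 bases and the median transcript span 1546 bases. Peaks annotated to 3' UTRs lay on transcripts with a median span of 2399 bases and exon peaks on transcripts of 2570 bases. The hosts comprised 469 protein-coding genes among the 473 that the RefSeq table of assembly TAIR10.1 held, and 4 were miRNA or long non-coding RNA genes. Chromosomes 1 to 5 held 126, 85, 120, 63 and 103 of the peaks.

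Some peaks could not be tied to 1 gene. The table gives no strand for a peak, and 109 of the 497 (21.9%) overlapped another gene of the expression table, 83 of them a gene on the opposite strand and 27 a gene on the same strand. The bases of a peak's blocks lay wholly inside the assigned transcript for 439 peaks. For 27 peaks (5.43%, against 6.07% of all peaks) under 50% of the block bases lay inside it, and for 2 none did. Of these 27 peaks, 24 overlapped another gene. The authors' deposited table gave 7 of the 27 as lower, 6 as higher and 14 as not called. In addition, 21 entries overlapped another 5' UTR entry of the same gene, so that 476 remained when overlapping entries were counted once.

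Methylation of the 5' UTR peaks was mostly lower in mettl16. At a false discovery rate (FDR) under 0.05 in the authors' deposited table, 322 of the 497 peaks were lower and 55 higher in mettl16, and 120 were not called. Over all 6437 peaks 51.6% were called lower and 17.6% higher, or 69.2% either way, against 64.8%, 11.1% and 75.9% of the 5' UTR peaks. The median log2 fold (mettl16 over Col-0, the order of genotypes in the table's name) was -0.277, and 401 of the 497 folds (80.7%) were below 0. The same table gave medians of -0.227 for all peaks, -0.2045 for 5080 peaks in 3' UTRs and -0.359 for 860 exon peaks. No test was made between the classes. The shifts were small, since 312 of the 377 called peaks had a fold under 0.5 in size.

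The largest folds were mostly not called. In the authors' deposited table the folds ran from -2.07 to 1.78, and 20 peaks had a fold of at least 1 in size, 12 of them up and 8 down. 3 of the 20 passed the FDR threshold, and 13 of the 20 lay on genes under 2 FPKM in Col-0. No fold was closer to 0 than 0.063 among the 5' UTR peaks and 0.0313 in the whole table. Medians are therefore medians of listed folds, and the sources used here do not say whether peaks with folds nearer 0 were dropped before the table was made.

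The folds were more negative at the compact peaks. In the authors' deposited table the median log2 fold was -0.35 for the 289 peaks that ended before the midpoint, -0.2435 for the 54 that ended past it and -0.191 for the 154 that reached the 3' end. Of the peaks that ended before the midpoint 178 were lower and 20 higher, of those past it 39 and 8, and of those reaching the 3' end 105 and 27. Without peaks that overlapped another gene, and with overlapping entries of a gene counted once, the 3 medians were -0.357, -0.242 and -0.192. The same order was seen in the 3' UTR peaks of the authors' deposited table, with medians of -0.3165 for 38 that ended before the midpoint, -0.25 for 1233 that ended past it and -0.194 for 3809 that reached the 3' end. Those 38 were unlike the rest, since 27 of them began at or before the transcript's start. Their hosts had a median of 0.771 FPKM in Col-0, against 9.80 FPKM for 3' UTR peaks past the midpoint and 12.8 FPKM for those reaching the 3' end.

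**Figure D2:**
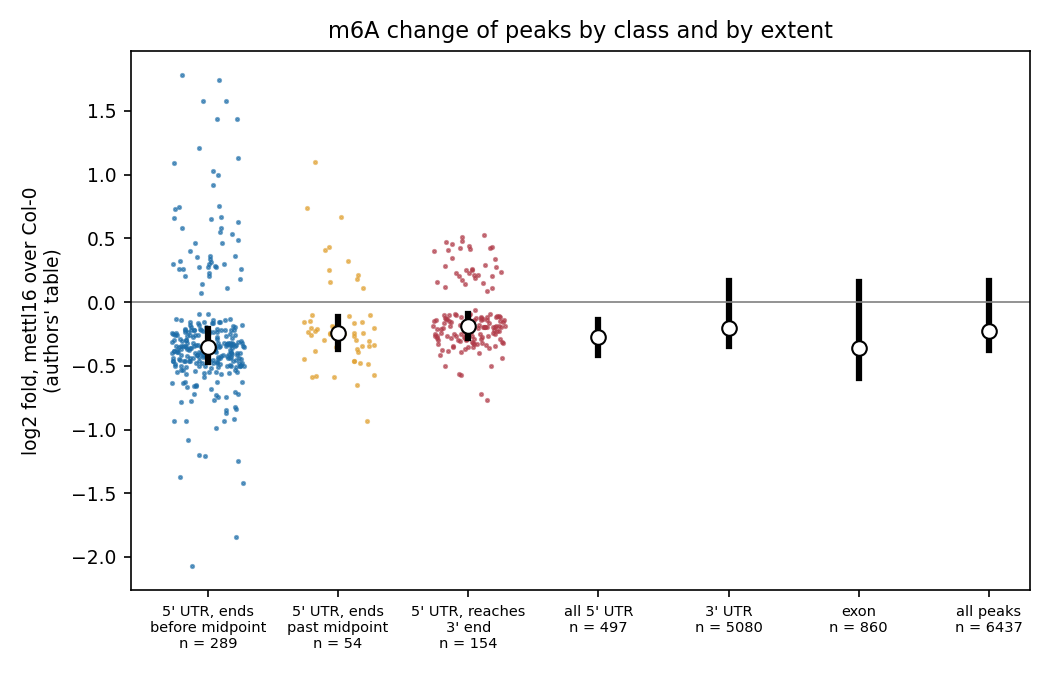
Log2 folds of the 5' UTR peaks, with each point 1 peak, by the kind of extent, and for each class a white point for the median and a black bar from the lower to the upper quartile, from the authors' deposited table. The median falls from -0.191 for peaks that reach the 3' end to -0.35 for peaks that end before the midpoint, and folds beyond 1 in size lie almost wholly among the latter.

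Peak strength moved with this order, and so its values are given by strength. The authors' deposited table lists a p-value of each peak itself, which was 0 for 11.4% of the peaks that ended before the midpoint, 76.0% of those that reached the 3' end and 51.7% of 3' UTR peaks. Among peaks with that p-value listed at 0, the median log2 fold was -0.305 for 33 peaks that ended before the midpoint, -0.166 for 117 that reached the 3' end, -0.163 for 2625 in 3' UTRs and -0.302 for 39 in exons. Among peaks with a p-value above 0 and up to 1e-100, the medians were -0.341, -0.269, -0.24 and -0.326 in the same order. Between 1e-30 and 1e-10 the medians were -0.343 for 78 peaks that ended before the midpoint, -0.3915 for 3' UTR peaks and -0.358 for exon peaks. Among the strongest peaks the compact 5' UTR peaks and the exon peaks thus sat below the 3' UTR peaks, and among peaks with a p-value above 1e-30 they did not.

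**Figure D3:**
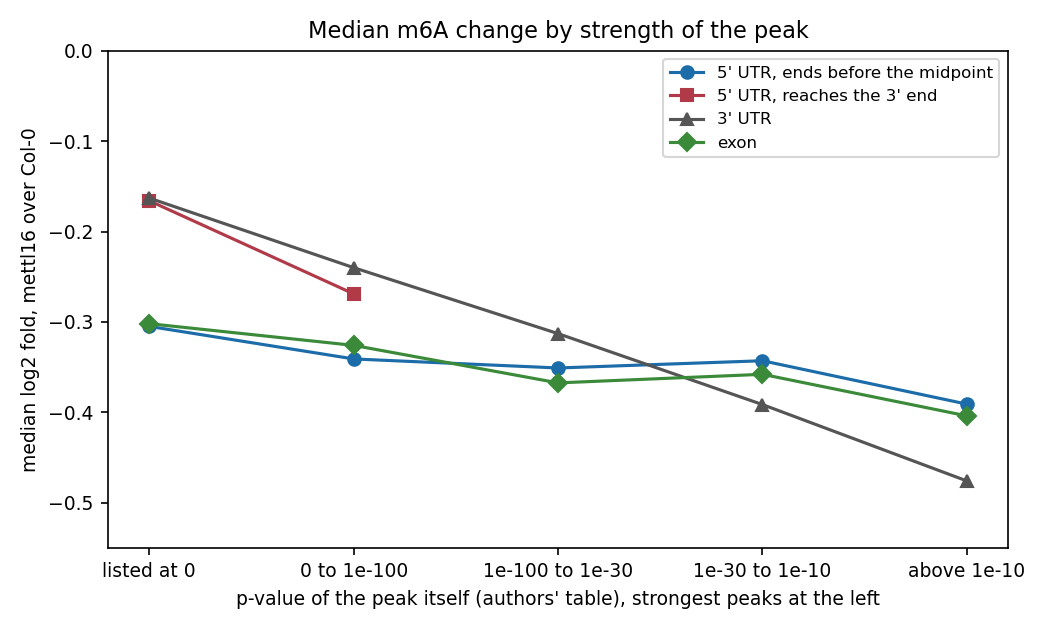
Median log2 fold of peaks (mettl16 over Col-0, authors' deposited table) in 5 bins of the peak's own p-value, the strongest at the left, with bins under 20 peaks left out. Compact 5' UTR peaks stay between -0.305 and -0.391, while 3' UTR peaks go from -0.163 in the strongest bin to -0.476 in the weakest.

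The level of the host gene moved with the calls as well. For 180 peaks on genes of 30 FPKM or more in Col-0 the authors' deposited table gave 152 as lower and 14 as higher, with a median of -0.252, against 73.6% lower and 19.5% higher of all peaks on genes of that level. For 52 peaks on genes under 2 FPKM it gave 11 as lower, 9 as higher and 32 as not called, with a median of -0.049, against 20.1% lower and 10.9% higher of all peaks at that level. The calls thus moved with level in all peaks as well. Peaks on genes of 2 to 10 FPKM had a median of -0.351 and those on genes of 10 to 30 FPKM -0.262. What part level and peak strength have in the medians by extent was not tested.

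The 10 called 5' UTR peaks with the most negative folds, 1 per gene, included regulators of small RNA, cuticle and hormone pathways. The most negative was on AT5G14650, a pectin lyase-like gene (chromosome 5, 4724450 to 4724794, build TAIR10), at -1.21 with an FDR of 0.0195 in the authors' deposited table. Its transcript was at 0.921, 0.59 and 0.695 FPKM in Col-0 against 1.73, 1.73 and 1.62 FPKM in mettl16. All mettl16 libraries lay above all Col-0 libraries (0.64 ± 0.0897 on the log2 scale, adjusted p = 0.000163), yet the gene was low in both genotypes.

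AGO7, an Argonaute protein that works with miR390 in making trans-acting siRNAs, had a 270-base peak 119 bases inside its transcript (chromosome 1, 26104778 to 26105047). Its fold in the authors' deposited table was -0.987 with an FDR of 1.74e-09. The transcript was at 3.56, 3.65 and 4.27 FPKM in Col-0 against 5.06, 4.84 and 4.99 FPKM in mettl16, without overlap (0.31 ± 0.0698, adjusted p = 0.00336). The F-box gene MAX2, which acts in strigolactone and karrikin signalling, had its peak at the first base of the transcript (chromosome 2, 17756140 to 17756409). It was -0.849 with an FDR of 5.37e-08 in the authors' deposited table. MAX2 transcript went the other way from that of AGO7, with 13.1, 13.4 and 13.0 FPKM in Col-0 and 9.72, 10.3 and 9.65 FPKM in mettl16 (-0.38 ± 0.0435, adjusted p = 3.88e-05).

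MYB106, a MIXTA-like regulator of epidermal cell shape and cuticle, had 2 overlapping entries in the authors' deposited table. The longer was -0.936 with an FDR of 0.0437 and the shorter -1.08 with an FDR of 0.0794, so the first was called and the second was not. Both overlap the listed gene AT3G01142, so the fold cannot be assigned to MYB106 with certainty. Its transcript was at 8.19, 9.0 and 9.09 FPKM in Col-0 and 10.5, 11.2 and 10.6 FPKM in mettl16 and rose (0.27 ± 0.0533, adjusted p = 0.00148). AT1G29560, a CCCH-type zinc finger gene, had a fold of -0.931 with an FDR of 0.000331 in the authors' deposited table. Its transcript rose from 3.17 to 3.52 FPKM in Col-0 to 4.08 to 4.45 FPKM in mettl16 (adjusted p = 0.00327).

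ADF11, an actin-depolymerizing factor, was -0.93 (FDR 0.0166) in the authors' deposited table, on a transcript of 0.423 to 1.01 FPKM that was not called (adjusted p = 0.0734). The ABC transporter ABCG8, the zinc finger gene ZF3 and AT1G54200 had folds of -0.838, -0.782 and -0.827 in the authors' deposited table. Their transcripts were not called in the main fit, at adjusted p = 0.14, 0.294 and 0.635. That of ABCG8 was called lower without mettl16 replicate 1 (-0.19, adjusted p = 0.0479). The last of the 10, the glycosyl hydrolase gene AT1G32860, was -0.775 (FDR 0.0138) in the authors' deposited table, and its transcript rose from 5.46, 4.99 and 5.0 FPKM to 8.46, 7.77 and 7.60 FPKM (0.54 ± 0.0593, adjusted p = 2.91e-05). Of the 10 hosts, 5 rose, 1 fell and 4 were not called. Over all genes tested 41.1% were higher, 23.4% lower and 64.5% called either way, with a median change of 0.085.

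The 10 called peaks with the most positive folds lay largely on genes of low level. AT2G07715, whose peak had the highest fold at 1.78 (FDR 0.038) in the authors' deposited table, lies at 3411013 to 3411182 of chromosome 2, in a region with an insertion of the mitochondrial genome. Reads may be shared with that genome, so the value is uncertain. The ribosomal L32p family gene AT1G69485 was 1.1 (FDR 0.0132) in the authors' deposited table. Its transcript was at 0.874, 0.579 and 0.669 FPKM in Col-0 against 0.392, 0.126 and 0.312 FPKM in mettl16, a level too low for the test. The WNK-related kinase gene AT5G24352 was 0.739 (FDR 0.0024) in the same deposited table of the authors, with a transcript of 0.662 to 1.34 FPKM that was not called (adjusted p = 0.587).

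A pair of enzymes from families known for detoxification was among the genes with higher peaks. CYP81K2, a cytochrome P450, had a fold of 0.752 (FDR 0.00038) in the authors' deposited table, and its transcript was at 5.73, 6.38 and 6.23 FPKM in Col-0 and 7.24, 7.81 and 6.71 FPKM in mettl16. The groups did not overlap and the change was 0.21 ± 0.0647 (adjusted p = 0.0156), but without Col-0 replicate 1 the adjusted p was 0.0534 and without mettl16 replicate 2 it was 0.0636. The call was also lost under median centring (adjusted p = 0.0738) and quantile normalization (adjusted p = 0.0758). GSTU10, a tau-class glutathione S-transferase, had a fold of 0.749 with an FDR of 0.00229 in the authors' deposited table, and its transcript fell from 2.66, 3.31 and 3.12 FPKM to 2.28, 2.32 and 1.93 FPKM (-0.34 ± 0.0865, adjusted p = 0.00618).

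AT4G30600, which encodes the alpha subunit of the signal recognition particle receptor, was the most abundant of the 10, at 41.5 to 45.6 FPKM. A 61-base peak at its first base was 0.728 (FDR 0.00339) in the authors' deposited table. Its transcript change was small (-0.08 ± 0.031, adjusted p = 0.037) and was not called in 5 of the 6 fits that left out a library, with adjusted p between 0.0571 and 0.127. MMH-1, a DNA glycosylase of base excision repair, was 0.653 (FDR 0.0251) in the authors' deposited table, and its transcript, at 5.51 to 7.27 FPKM, was not called (adjusted p = 0.754).

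3 of the 10 higher peaks were shared with a neighbouring gene. ESB1, a dirigent-domain protein of the Casparian strip, and AT2G28671 lie on opposite strands and had overlapping entries that the authors' deposited table gives as 0.669 with an FDR of 0.0457 and 0.661 with an FDR of 0.038. AT2G28671 transcript was called lower (-0.45 ± 0.155, adjusted p = 0.03), but its libraries overlapped, at 1.02 to 1.26 FPKM in Col-0 and 1.06, 0.327 and 0.401 FPKM in mettl16. The change was -0.97 with a pseudocount of 0.1, and leaving out any library but mettl16 replicate 1 ended that call, with adjusted p between 0.0531 and 0.105. On AT1G23180 the peak, 0.631 (FDR 0.00389) in the authors' deposited table, began 273 bases before the transcript and overlapped AT1G23170, and 24.2% of its bases lay inside the assigned transcript. AT1G23180 transcript was at 15.3, 14.4 and 14.3 FPKM in Col-0 against 16.7, 16.2 and 17.1 FPKM in mettl16 (0.17 ± 0.0429, adjusted p = 0.00527), a call lost under median centring (adjusted p = 0.0616).

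Genes that carried another peak allowed a comparison within the assigned gene. The transcripts to which the peaks were assigned were not matched. In 90 genes with a 5' UTR peak and a peak of another class, the mean 5' UTR fold was the lower of the pair in 61. The median difference was -0.1145, between medians of -0.3835 for the 5' UTR peaks and -0.258 for the other peaks. Among 84 genes whose peaks did not overlap, 57 had the lower fold at the 5' UTR and the median difference was -0.1188. All of these folds are from the authors' deposited table, and no test over genes was made. Both peaks were called in 48 genes, of which 35 had both lower and 0 had both higher. In 10 the 5' UTR was lower and the other higher, and in 3 the reverse held. Of all called peaks of each class, 85.4% were lower in 5' UTRs, 71.8% in 3' UTRs and 87.6% in exons. The opposite calls are therefore not read as particular to these genes.

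**Figure D4:**
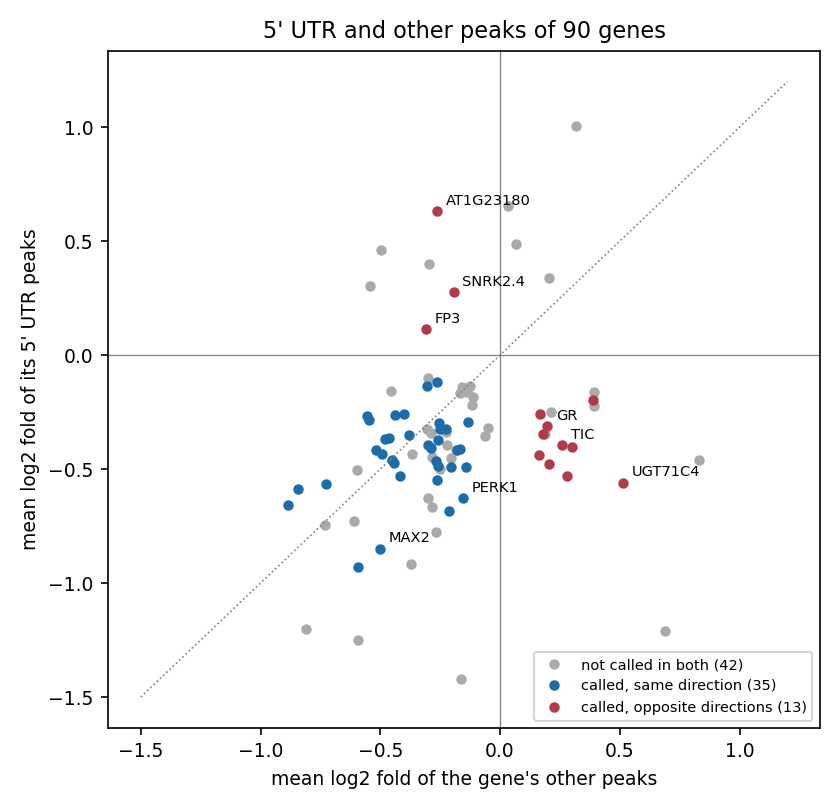
Mean log2 fold of the 5' UTR peaks of a gene against that of its other peaks for 90 genes, from the authors' deposited table, with equal folds on the dotted line. Most genes lie where both folds are below 0. The 13 genes called in opposite directions (red) include 10 with the 5' UTR peak lower. The 5' UTR peak of AT1G23180, with 24.2% of its bases inside the transcript, overlaps AT1G23170 and cannot be assigned with certainty.

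Opposite calls fell on genes of several functions, of which 5 are named here after their values were seen. The glucosyltransferase gene UGT71C4 had the widest gap of these, with -0.559 at the 5' UTR (FDR 1.78e-10) and 0.515 at the 3' UTR (FDR 1.74e-05) in the authors' deposited table. UGT71C4 transcript was at 27.1, 26.5 and 27.6 FPKM in Col-0 and 23.8, 23.3 and 23.0 FPKM in mettl16 and fell slightly (-0.21 ± 0.034, adjusted p = 0.000472). TIC, a regulator of the circadian clock, had -0.395 at the 5' UTR and 0.26 at the 3' UTR in the authors' deposited table. Its transcript was lower in every mettl16 library, at 30.2, 30.6 and 32.7 FPKM against 37.1, 40.5 and 40.4 FPKM (-0.33 ± 0.0447, adjusted p = 0.000134).

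Glutathione reductase (GR), which keeps glutathione reduced, had -0.312 and 0.198 at its 5' and 3' UTR in the authors' deposited table, on a transcript that rose from 133, 138 and 135 FPKM to 172, 168 and 169 FPKM (adjusted p = 2.75e-06). The kinase gene SNRK2.4 had the reverse order, 0.277 at the 5' UTR and -0.194 at the 3' UTR in the authors' deposited table. Its transcript was at 24.7, 27.0 and 30.2 FPKM in Col-0 and 56.6, 32.1 and 32.6 FPKM in mettl16, where replicate 1 stood apart. The change was not called (0.50 ± 0.266, adjusted p = 0.167), and without mettl16 replicate 1 it was 0.24 with an adjusted p of 0.0248. FP3, a farnesylated protein, had 0.113 at the 5' UTR and -0.307 at the 3' UTR in the authors' deposited table, and its transcript was not called (89.4 to 96.2 FPKM, adjusted p = 0.419).

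The shares of listed genes with a 5' UTR peak are read against 475 of 6003 peak-bearing genes, 7.91%. Of 22 genes known to be controlled by upstream reading frames, 3 had any peak in the authors' deposited table and 0 had a 5' UTR peak. The counts were 7 and 0 of 23 genes of the m6A machinery, 6 and 0 of 21 clock genes and 7 and 0 of 25 light-harvesting antenna genes. With so few peak-bearing genes, 0 is near that share. Of 44 listed flowering genes 17 had a peak and 3 a 5' UTR peak. The lists were not complete: TIC, given above with a 5' UTR peak, was not on the clock list. NF-YC4, CDF1 and CIB1, given below with such peaks, were not on the flowering list. The absence of a listed peak does not show that a transcript carries no m6A there.

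The 3 listed flowering genes were SPL3, SPL5 and FCA. SPL3, an SBP-box factor that promotes flowering and is a target of miR156, had 2 overlapping entries (chromosome 2, 14305001 to 14305565 for the longer), which the authors' deposited table gives as -0.253 with an FDR of 0.0115 and -0.236 with an FDR of 0.0229. SPL3 transcript was at 8.18, 7.09 and 7.23 FPKM in Col-0 against 18.6, 17.3 and 17.6 FPKM in mettl16. The groups were far apart, a change of 1.15 ± 0.057 (adjusted p = 1.06e-07). The peak overlapped the antisense RNA gene AT2G33815, which was at 0.24 FPKM or less in every library.

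SPL5, of the same family, was listed with a peak of 0.253 (FDR 0.000977) in the authors' deposited table, but 1.75% of that peak's block bases lay inside SPL5. The peak spans 5139926 to 5142644 of chromosome 3 in 3 blocks, and SPL5 lies within that span on the minus strand. AT3G15260, a protein phosphatase 2C gene on the plus strand, spans all of the peak. SPL5 transcript was at 5.06, 4.60 and 4.80 FPKM in Col-0 and 12.4, 11.0 and 12.2 FPKM in mettl16 (1.14 ± 0.0599, adjusted p = 1.51e-07). AT3G15260 was at 18.1, 18.7 and 19.8 FPKM and at 18.1, 20.3 and 20.2 FPKM and was not called (adjusted p = 0.462). The higher m6A value can thus not be assigned to SPL5.

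FCA, an RNA-binding protein of the autonomous flowering pathway, had a peak that began 1240 bases into its 8229-base transcript span, at -0.436 (FDR 0.0269) in the authors' deposited table. FCA transcript was at 4.51, 4.94 and 4.60 FPKM in Col-0 against 4.79, 4.74 and 4.53 FPKM in mettl16. The libraries overlapped and the change was 0.00 ± 0.0585 (adjusted p = 0.989).

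Other regulators of flowering time, light response and shoot form were picked after their values were seen, and no count of them supports a statement. NF-YC4, a histone-fold subunit that acts with CONSTANS, had 2 entries at its first bases of -0.239 and -0.245 in the authors' deposited table. Its transcript fell from 20.4 to 21.3 FPKM in Col-0 to 9.44 to 10.03 FPKM in mettl16 (-1.03 ± 0.0408, adjusted p = 2.43e-08). CDF1, a DOF factor that represses CONSTANS, was -0.18 (FDR 0.0437) in the authors' deposited table and PIF7, a phytochrome-interacting factor of the shade response, -0.323 (FDR 0.0302). CDF1 transcript fell from 28.9 to 30.7 FPKM in Col-0 to 24.8 to 26.9 FPKM in mettl16 (adjusted p = 0.0039), and PIF7 from 36.6 to 38.6 FPKM to 31.6 to 31.9 FPKM (adjusted p = 0.000113).

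KNAT1, a homeobox gene of KNOX class I that acts in shoot meristems and stems, had a peak 328 bases inside its transcript (chromosome 4, 5150369 to 5150638) of -0.344 (FDR 0.000372) in the authors' deposited table. KNAT1 transcript was at 7.48, 7.76 and 7.81 FPKM in Col-0 against 43.0, 42.3 and 39.4 FPKM in mettl16, the groups lying far apart (2.29 ± 0.0434, adjusted p = 2.26e-10). KNAT4, a class II KNOX gene, was -0.425 in the authors' deposited table on a transcript that fell from 43.3, 44.1 and 42.4 FPKM to 30.5, 32.3 and 31.5 FPKM (adjusted p = 1.98e-06). BLH1, whose BEL1-like protein pairs with KNOX proteins, had entries of -0.421 and -0.415 in the authors' deposited table. Its transcript rose slightly, from 46.4 to 48.8 FPKM to 51.4 to 53.1 FPKM (0.14 ± 0.0311, adjusted p = 0.00329), a call lost under median centring (adjusted p = 0.0852) and under quantile normalization (adjusted p = 0.109).

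The growth regulators TCP14 and TCP15 had folds of -0.486 and -0.322 in the authors' deposited table. TCP14 transcript fell from 35.9, 34.5 and 33.7 FPKM to 24.7, 23.6 and 23.2 FPKM (adjusted p = 1.56e-06), whereas TCP15 rose from 22.9 to 24.3 FPKM in Col-0 to 29.1 to 31.4 FPKM in mettl16 (adjusted p = 3.96e-05). RAP2.4, an ERF-family factor of light and drought response, had a higher peak at its first base, 0.552 (FDR 4.79e-09) in the authors' deposited table. RAP2.4 transcript rose from 59.1, 58.2 and 55.6 FPKM to 68.4, 64.8 and 66.1 FPKM (0.20 ± 0.0341, adjusted p = 0.00055).

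Nuclear genes for photosynthesis had 4 such peaks, all at the first base of the transcript and 59 to 471 bases wide. They lay on 4 of the 21 genes with any peak, out of 90 in that pathway. The authors' deposited table gave the photosystem I subunit genes PSAD-2 and PSAG as -0.232 and -0.13 and the photosystem II gene PSBY as -0.341, all lower, and DRT112, which encodes plastocyanin, the copper carrier of electrons to photosystem I, as 0.263, higher. PSAD-2 was at 2177, 2172 and 2043 FPKM in Col-0 against 1244, 1211 and 1208 FPKM in mettl16, and PSAG at 3896, 3634 and 3888 FPKM against 2678, 2431 and 2411 FPKM. PSBY was at 2392, 2274 and 2300 FPKM in Col-0 against 1900, 1748 and 1737 FPKM in mettl16, and DRT112 at 3547, 3416 and 3505 FPKM against 3054, 3020 and 3023 FPKM. In all 4 the groups lay apart, and the transcripts were called lower in the main fit, by changes of -0.80, -0.60, -0.37 and -0.20 in that order. Of all genes tested the groups lay apart for 69.8%, and 23.4% were called lower. Under quantile normalization PSBY and DRT112 changed sign, to 0.23 and 0.25. The Calvin cycle gene PRK and the tetrapyrrole-binding gene GUN4, picked after their values were seen, had peaks of -0.28 and -0.504 in the authors' deposited table. GUN4 transcript fell from 430, 408 and 414 FPKM to 325, 316 and 310 FPKM (adjusted p = 1.55e-06), while that of PRK, at 1407 to 1411 FPKM in Col-0 and 1310 to 1377 FPKM in mettl16, changed by -0.07 (adjusted p = 0.0193). PRK lost that call without mettl16 replicate 2 (adjusted p = 0.0663) or replicate 3 (adjusted p = 0.0789) and changed sign under quantile normalization.

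Ribosome genes made up the largest of the 4 pathways counted, with 37 peaks on 36 of 416 genes in the authors' KEGG column. Of the 416 genes 163 had any peak, so 36 of 163 stands against 475 of 6003 peak-bearing genes (7.91%). Of these peaks, 34 were lower in the authors' deposited table and 3 higher, with a median log2 fold of -0.202, and 29 of the 37 reached the 3' end. Of all peaks 51.6% were lower, and 73.6% of those on genes of 30 FPKM or more. The 34 lower folds ran from -0.354 to -0.0999, so that with the table's median of -0.227 subtracted 16 called ribosome peaks were below 0 and 20 above. The 128 peaks in 3' UTRs of ribosome genes had a median of -0.203 in the authors' deposited table, with 111 lower and 5 higher. Transcripts of 32 of the 35 hosts tested rose and 0 fell, with a median change of 0.55. Of all genes tested 41.1% were higher and 23.4% lower, with a median change of 0.085. Between 29 and 34 of the 35 ribosome hosts were higher, and 0 lower, under median centring, quantile normalization and TPM.

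The 2 highest folds of that pathway were those on AT2G07715 and AT1G69485 given above. Next in size came the L31e gene AT4G26230 at -0.354 and the L35Ae gene AT1G41880 at -0.346 in the authors' deposited table. AT4G26230 was at 255, 254 and 252 FPKM in Col-0 against 399, 395 and 418 FPKM in mettl16, and AT1G41880 at 380, 383 and 380 FPKM and at 571, 548 and 582 FPKM. For both genes the groups lay well apart (adjusted p = 2.71e-08 and 7.3e-08), and the peak on AT4G26230 also overlapped AT4G26240. AT1G26740, a ribosomal L32p family gene, was the exception among the better expressed ones with a higher peak, 0.341 (FDR 2e-07) in the authors' deposited table, on a transcript that rose from 12.8, 11.6 and 13.9 FPKM to 17.7, 16.0 and 17.8 FPKM (adjusted p = 0.000499). The L39 gene AT3G02190 and the L27e gene AT4G15000 had folds of -0.332 and -0.326 in the authors' deposited table, and both transcripts rose (adjusted p = 0.0124 and 1.2e-07). The call of AT3G02190 was lost without Col-0 replicate 1 (adjusted p = 0.0552).

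Of 301 spliceosome genes in the authors' column, 100 had any peak and 8 a 5' UTR peak. The authors' deposited table gave 4 of their 8 5' UTR peaks as lower, 2 as higher and 2 as not called, against 51.6% lower of all peaks. The 86 peaks in 3' UTRs of spliceosome genes had 56 lower and 14 higher there. Of the 8 host transcripts 6 rose, 0 fell and 2 were not called, against 41.1% higher of all genes tested. The largest fold was that of AT1G20920, an ATPase by its description, at -0.488 (FDR 3.16e-43) in the authors' deposited table, on a transcript that was not called (15.6 to 16.8 FPKM, adjusted p = 0.276). Peaks that covered the whole transcript of the Sm-core gene SNRNP-G and the SF3b-type gene AT4G14342 were -0.216 and 0.253 in the authors' deposited table. SNRNP-G rose from 82.9, 82.2 and 84.3 FPKM to 118, 119 and 122 FPKM and AT4G14342 from 33.8, 34.6 and 33.4 FPKM to 45.5, 42.4 and 43.2 FPKM (adjusted p = 1.38e-07 and 1.47e-05). The list also held PDLP2, by its description a plasmodesmata-located protein and not a splicing factor, at -0.344 (FDR 0.00117) in the authors' deposited table. The other 4 were AT2G22100 at -0.382 and LSM6A at -0.063, not called, and the small ribonucleoprotein genes AT3G11500 at -0.29 and AT2G14285 at 0.159, both called, in the authors' deposited table. The rise of AT3G11500 transcript (adjusted p = 0.0175) was lost without any 1 of 4 libraries, with adjusted p between 0.0583 and 0.0671, and under median centring.

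Transcripts of genes with a 5' UTR peak changed about as often as those of all genes. Of 458 hosts tested, 194 were higher and 121 lower in mettl16, which is 68.8% called against the 64.5% of all genes tested. The median change was 0.086 for the hosts and 0.085 for all genes. The libraries of the genotypes did not overlap for 73.4% of the hosts, against 69.8% of all genes tested. The split depended on scaling: 61.6% of the called hosts were higher in the main fit, 50.8% (156 higher and 151 lower) under median centring, 50.3% (153 and 151) under quantile normalization and 67.3% (216 and 105) as TPM. Over all genes tested the same shares were 63.7%, 52.5%, 49.3% and 67.5%, so the split of the hosts moved about as that of all genes. Hosts of peaks that ended before the midpoint had 93 higher and 85 lower of 262 tested, and hosts of peaks that reached the 3' end 82 and 20 of 150. Under median centring these became 73 and 101, and 69 and 33. Of the 37 ribosome peaks 29 reached the 3' end, and 32 of the 35 ribosome hosts tested were higher and 0 lower. What part the ribosome genes had in the split by extent was not tested. The sources used here do not say whether the m6A folds were formed with these input libraries; since they may share them, m6A and expression values are set side by side and no relation between them was computed.

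**Figure D5:**
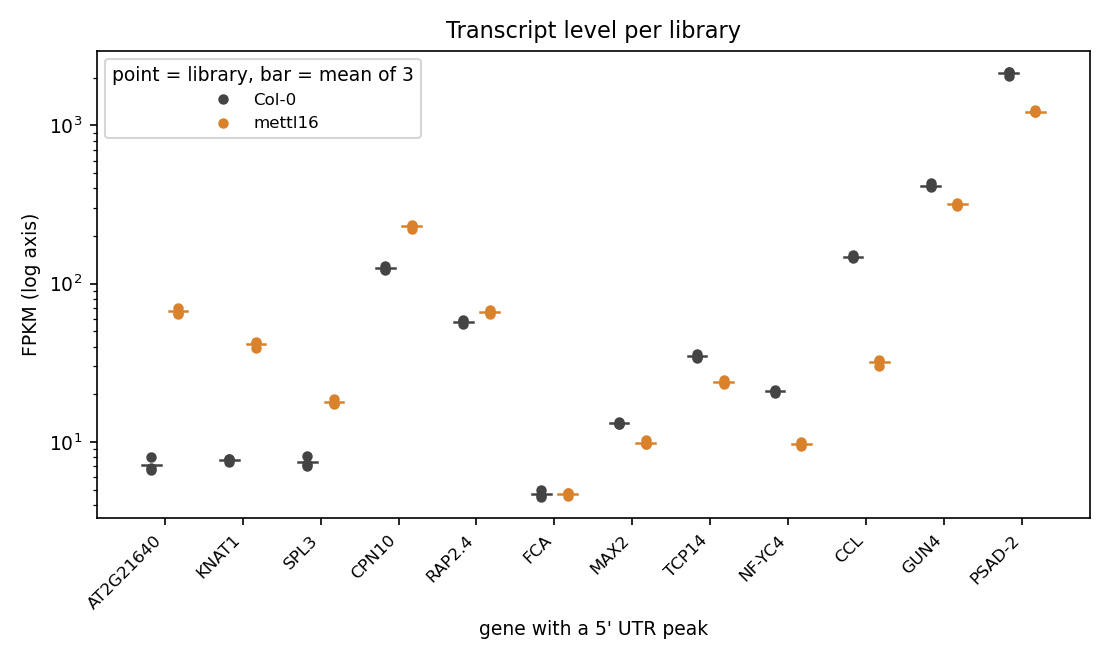
FPKM on a log axis of 12 genes with a 5' UTR peak, each point 1 library and each bar the mean of 3, with Col-0 in grey and mettl16 in orange. KNAT1 goes from 7.69 to 41.6 FPKM and NF-YC4 from 20.9 to 9.72 FPKM, both with a lower peak, while FCA stays at 4.68 and 4.69 FPKM.

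Of the hosts tested, 12 had a change of at least 1 and 8 of -1 or below. The share of all genes with such changes was not computed, so these counts are not read as particular to the hosts. Some hosts with large changes that were not described above are named here after their values were seen. AT2G21640, which had a lower peak over its whole transcript of -0.77 (FDR 5.01e-20) in the authors' deposited table, was at 7.99, 6.82 and 6.65 FPKM in Col-0 and 70.4, 65.7 and 64.5 FPKM in mettl16. The rise was 3.06 ± 0.063 (adjusted p = 5.47e-10). AT4G19430 rose from 9.42, 8.43 and 9.03 FPKM to 66.1, 58.6 and 58.2 FPKM (2.64 ± 0.0566), with a peak of -0.217 (FDR 0.0479) in the authors' deposited table. CPN10, the small subunit of the mitochondrial chaperonin, rose from 125, 130 and 123 FPKM to 236, 232 and 223 FPKM (0.87 ± 0.032, adjusted p = 1.56e-08). Its peak was -0.575 with a log10 FDR of -176 in the authors' deposited table.

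Hosts with some of the largest falls were CCL, EXT3 and GRP9. CCL, annotated as CCR-like, fell from 146, 151 and 148 FPKM to 33.2, 32.4 and 30.3 FPKM (-2.18 ± 0.037), with a peak of -0.257 in the authors' deposited table. EXT3, an extensin of the cell wall, fell from 76.1, 73.8 and 72.9 FPKM to 17.8, 18.1 and 15.6 FPKM (-2.06 ± 0.0523), and the glycine-rich protein gene GRP9 from 27.8, 28.2 and 26.1 FPKM to 6.37, 8.07 and 7.75 FPKM (-1.76 ± 0.075). Their peaks were -0.462 and -0.591 in the authors' deposited table. AGP16, an arabinogalactan protein, fell from 80.9, 76.3 and 78.3 FPKM to 39.3, 39.0 and 37.3 FPKM (-1.01 ± 0.034) with a higher peak, 0.204 in the authors' deposited table.

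PERK1 and AT5G09880 show a clear m6A call beside little or moderate change of transcript. PERK1, a receptor-like kinase, had a peak of -0.626 (FDR 2e-71) in the authors' deposited table, and its transcript was at 45.6, 46.9 and 46.6 FPKM in Col-0 and 46.8, 45.2 and 44.9 FPKM in mettl16. Those libraries overlapped (-0.02 ± 0.0306, adjusted p = 0.531), although the change was called at -0.09 under median centring and -0.11 under quantile normalization. AT5G09880, a CC1-like splicing factor, had -0.348 at the 5' UTR and 0.179 at the 3' UTR in the authors' deposited table, and its transcript rose from 34.3, 33.9 and 34.5 FPKM to 43.5, 40.8 and 41.4 FPKM (0.28 ± 0.0334, adjusted p = 4.9e-05).

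As for SNRK2.4, 1 library decided the expression value of CIB1, MAPR2 and AT5G28500. CIB1, a cryptochrome-binding bHLH factor that promotes flowering, was at 13.2, 14.3 and 13.4 FPKM in Col-0 against 1.62, 9.45 and 9.48 FPKM in mettl16. The change was not called (-1.15 ± 0.654, adjusted p = 0.196), and without mettl16 replicate 1 it was -0.48 with an adjusted p of 8.68e-05. The same-strand gene AT4G34540, which the expression table starts at the same base, was at 2.67, 2.92 and 3.21 FPKM in Col-0 against 6.27, 2.37 and 2.47 FPKM in mettl16, high in the library in which CIB1 was low. CIB1 had 4 entries in the authors' deposited table, of which 2 near the start, -0.22 and -0.219, were not called and 2 at the 3' end, 0.43 and 0.421, were called higher. By its listed coordinates AT4G34540 spans all of CIB1, so these folds cannot be assigned to CIB1 with certainty.

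MAPR2 was at 11.6, 11.4 and 0.0109 FPKM in Col-0 against 0.00647, 0.00466 and 0.152 FPKM in mettl16, so that Col-0 replicate 3 lay with the mutant. AT2G24945, which overlaps it on the same strand, was at 14.0, 14.7 and 27.9 FPKM in Col-0 against 26.4, 26.8 and 3.17 FPKM in mettl16. MAPR2 was not called (-2.36 ± 1.19, adjusted p = 0.155), and without Col-0 replicate 3 it was -3.57 with an adjusted p of 1.79e-08. AT5G28500 was at 9.92, 232 and 10.8 FPKM in Col-0 against 312, 306 and 296 FPKM in mettl16. It was not called (3.30 ± 1.43, adjusted p = 0.112), and without Col-0 replicate 2 it was 4.75 with an adjusted p of 1.6e-11. For CIB1 and MAPR2 the reads of overlapping genes may have been shared out differently between libraries, which was not tested, and the values of all 3 genes are uncertain. The peaks of MAPR2 and AT5G28500, at the first base of each transcript, were -0.194 and -0.364 in the authors' deposited table. That of MAPR2 covers nearly the same bases as the entry listed for AT2G24945 (-0.199), so its fold cannot be assigned to MAPR2.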

How the data were processed

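Polyadenylated RNA was cut to about 100 nt and part was pulled down with an m6A antibody; pulled-down and input RNA became strand-marked libraries, per the labels' protocols. Per the submitters' processing notes the build was TAIR10 and the tools included HISAT2, StringTie, HOMER, edgeR, fastp and cutadapt, without version or role. The sources used here do not give the program that called peaks, how the fold was formed or how replicates and strand were used. The authors deposited FPKM per gene for 6 input libraries, and the authors' deposited peak table holds a log2 fold, a p-value of the difference, a p-value of the peak and the log10 of the FDR, a score below 0, per the file headers. Positions are those of the files, counted from 1.

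Peaks were taken at the authors' FDR under 0.05 and described by counts and medians. The members and gene lists were chosen with earlier results of these data known. Named peaks were the 10 most negative and 10 most positive called ones, 1 per gene, peaks of listed genes, pathway examples by size of fold, and those said to be picked later. The 5 smallest peak p-values could not be ranked, since 173 are listed at 0.

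Expression was tested on log2(FPKM + 1), for 19505 genes whose mean reached 0.5 FPKM, with limma 3.58.1 in R 4.3.3 (trended robust prior, two-sided, Benjamini-Hochberg adjusted p under 0.05 over all genes tested); changes of low genes are understated. Values after ± are standard errors of the log2 change. The test was checked on simulated data. The p-values measure the spread between 3 samples a genotype. The labels tie no batch to the replicate numbers, and the main fit has no block. Summaries used Python 3.11.15, NumPy 2.4.6 and pandas 2.3.3, and plots matplotlib 3.10.9. Gene symbols are those of RefSeq. Deposited per-sample columns not used numbered 0. No genome of the files' build was at hand, so no sequence or motif was read.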

Additional observations from a re-analysis of the deposited data

How the results depend on the processing

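The counts of 5' UTR peaks, 322 lower and 55 higher, became 53 and 12 with a fold of at least 0.5 in size. In the stronger part of the peaks by their own p-value 182 were lower, a count from fewer peaks and not a loss of calls. With the table's median subtracted 130 were higher, 20 of the 37 ribosome peaks were above 0, and among the named peaks those of PSAG (0.097), SNRNP-G (0.011), CDF1 (0.047), MAPR2 (0.033) and AT4G19430 (0.01) changed sign. The counts stayed within 1.5 times at an FDR under 0.01, with overlapping entries counted once, and with peaks that had 50% or more of their bases inside the transcript (315 lower and 49 higher), the last chosen after seeing the data, as were the alternatives for the kinds of extent. The counts over all hosts stayed within 1.5 times under every alternative run, but hosts of peaks that reached the 3' end went from 20 lower to 33 under median centring and under quantile normalization. Over all hosts they ranged from 184 to 193 higher and from 107 to 118 lower when 1 library was left out. With the replicate number as a block they were 197 higher and 121 lower, and AT4G30600 (adjusted p = 0.0534) and AT3G02190 (adjusted p = 0.0547) were no longer called. The labels tie no batch to the numbers, and the deviations of same-numbered RNA-seq samples correlated at -0.0823, 0.0087 and 0.0017, which does not show pairing; the m6A libraries could not be checked. Under quantile normalization the expression changes of PSBY (0.2255), DRT112 (0.2454) and PRK (0.1653) changed sign; the cause was not tested. For 67 named hosts, 886 of 932 alternative values were called or not called as in the main fit, 33 lost the call and 10 gained it. Another 3 changed sign with a call in at least 1 of the fits compared. Changes of sign in values called in neither fit were not counted apart. The motif alternatives were not run, for want of sequence. Depth in reads is unknown, and low hosts gave the least certain values.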
